A study of Mus musculus with 96 samples.

Results

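The liver of light-shifted pregnant mice was compared across 4 times of day, and the 12 libraries described here are all those of the authors' table for these mothers, out of 96 liver libraries in the series. The mothers were pregnant C57BL/6J mice, a standard laboratory strain, with no engineered allele named in the labels. Their light schedule of 12 h light and 12 h dark was advanced by 8 h every 5 days during pregnancy. The 4 times are given as Zeitgeber time (ZT), in hours after the lights come on: ZT0, ZT6, ZT12 and ZT18, with 3 replicates each. Control mothers of the same strain, sampled at the same 4 times on an unshifted schedule of 12 h light and 12 h dark (12 libraries, 3 a time), are used below only where the shifted mothers differ from them. The series also holds fetuses and grown male offspring on low-fat or high-fat diets, which are not described. The sources used here do not give the age of the mothers, the day of gestation, the number of days between the last advance and sampling, feeding times, or whether the replicates were separate animals, so the p-values below measure the spread between these samples, which may be technical.

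The poly(A) RNA of each liver was sequenced with a stranded kit, and the deposited values are FPKM, fragments scaled to the length of the transcript and to the mapped fragments of the library. The depth of each library is unknown, because the tables hold no counts. FPKM summed over 24066 genes ran from 535912 to 612061 per library. Levels are given below as FPKM divided by a scaling factor per library, and differences and folds are on the log2(FPKM + 1) scale, which understates the change of genes with low values. A gene was tested if it reached an FPKM of 1 in at least 3 of the 12 libraries, which left 10035 genes, and it was called at a Benjamini-Hochberg adjusted p under 0.05. The hepatocyte marker list, with 11 of its 12 genes in the table, summed to between 91300 and 183000 scaled FPKM in every library, as the liver label requires. Among the adipocyte markers Lep, Plin1, Cfd and Retn were listed at 0 in all 12 libraries, as were Prss2 and Cel among the pancreatic acinar markers. The third replicates of ZT18 and ZT0 stood furthest from the rest, with a median correlation to the other 11 libraries of 0.9526 and 0.9655, and each was most like the other (r = 0.9872, across genes). The count of the test of time is given with and without them, as are some of the later counts. Named calls that end without them are given too. In bulk liver, fewer cells of a type and less RNA per cell cannot be told apart.

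The daily clock of the liver is a feedback loop of transcription factors. BMAL1, encoded by Arntl, pairs with CLOCK or its relative NPAS2 and binds E-box sequences to activate the Per and Cry genes, whose proteins then inhibit that pair, and to activate Nr1d1 and Nr1d2, whose products repress Arntl through response elements called ROREs that they share with the ROR activators. A further layer is formed by the PAR bZIP activators DBP, TEF and HLF and the repressor NFIL3, which compete for D-box sequences and drive many metabolic genes of the hepatocyte. In mice, which eat mostly at night, the liver clock follows both light and the time of feeding.

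Stretches of 4 promoters that hold these sequences are shown here, with a site of Arntl, because the genes that were lowest at ZT6 and the genes that were highest at ZT6 in shifted mothers include members of opposite arms of that loop. The sequences are from RefSeq on GRCm38.p6, the mm10 assembly, taken from windows of 250 bases before to 50 bases after a gene's start, read 5′ to 3′ on the gene's strand. Capitals mark the E-box CACGTG, the D-box TTATGNAA on either strand, or, in Arntl, the RORE. The stretch of Ciart (chr3:95882252-95882359, minus strand) lies just upstream of the annotated gene, in an intron of a noncoding gene on the other strand, and holds 3 E-boxes. That of Per1 (chr11:69098768-69098947, plus strand) lies upstream of an internal start, inside the annotated gene but in no exon. That of Coq10b (chr1:55052593-55052712, plus strand) lies upstream of the gene, within an exon of an unnamed antisense transcript. Tef has 2 starts, and each site is shown with 30 bases in all. Its first site (chr15:81802534-81802563, plus strand) lies in the 5′ UTR of a longer transcript, and its second (chr15:81811264-81811293, plus strand) in an intron. The Arntl site (chr7:113207528-113207557, plus strand) lies in the 5′ UTR of the first exon.
Ciart: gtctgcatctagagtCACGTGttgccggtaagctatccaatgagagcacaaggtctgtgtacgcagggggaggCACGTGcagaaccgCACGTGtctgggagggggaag
Per1: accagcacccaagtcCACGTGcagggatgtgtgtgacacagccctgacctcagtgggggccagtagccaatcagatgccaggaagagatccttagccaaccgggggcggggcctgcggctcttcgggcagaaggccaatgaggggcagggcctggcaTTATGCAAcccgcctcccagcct
Coq10b: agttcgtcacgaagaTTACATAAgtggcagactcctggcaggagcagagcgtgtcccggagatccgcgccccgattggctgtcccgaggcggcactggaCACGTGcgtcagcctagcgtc
Tef, first site: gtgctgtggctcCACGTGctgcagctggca
Tef, second site: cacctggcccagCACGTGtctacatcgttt
Arntl: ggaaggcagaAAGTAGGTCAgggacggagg

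The time test called few genes in the shifted mothers, and in these ZT6 was the highest or the lowest time. The F test over the 4 means called 72 of 10035 genes (0.717%), with 878 genes at an unadjusted p under 0.05. In the control mothers the same test called 430 of 10052 genes (4.28%). Such counts depend on the spread between replicates as well as on time of day. In all 72 called genes ZT6 was an extreme: 30 were highest and 42 were lowest at ZT6. Some of the 30, Npas2, Asap2 and Mpzl1 among them, passed the filter on low values only through their ZT6 libraries. A difference was thus built into their being tested, and the number of such genes was not counted. The 3 ZT6 libraries lay clear of all 9 others in 70 of the 72, the exceptions being Ypel2 and Arhgap24, in which ZT0 replicate 1 reached the lowest ZT6 library. The fold between the highest and the lowest time had a median of 2.32 among the called genes (range 1.68 to 17.6), against 1.19 over all genes tested. With no filter on low values the test called 14 genes, and in one fit with control mothers it called 204.

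The same time stood apart over all genes, whether called or not. The 3 ZT6 libraries lay above the other 9 in 303 genes (3.02% of those tested) and below them in 429 (4.28%). The corresponding counts were 5 above and 17 below for ZT0, 45 and 23 for ZT12, and 8 and 5 for ZT18. A gene that reached an FPKM of 1 only in the 3 libraries of its highest time was tested through those libraries. Its place above the other 9 was then largely built in, and how many of the 303 were such genes was not counted. The filter does not build in a place below the other 9. ZT6 was the highest time in 35.5% of all genes, such genes included, and the lowest in 35.9%. The heat map of the called genes shows 2 blocks at ZT6 and a less even ZT0.

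**Figure D1:**
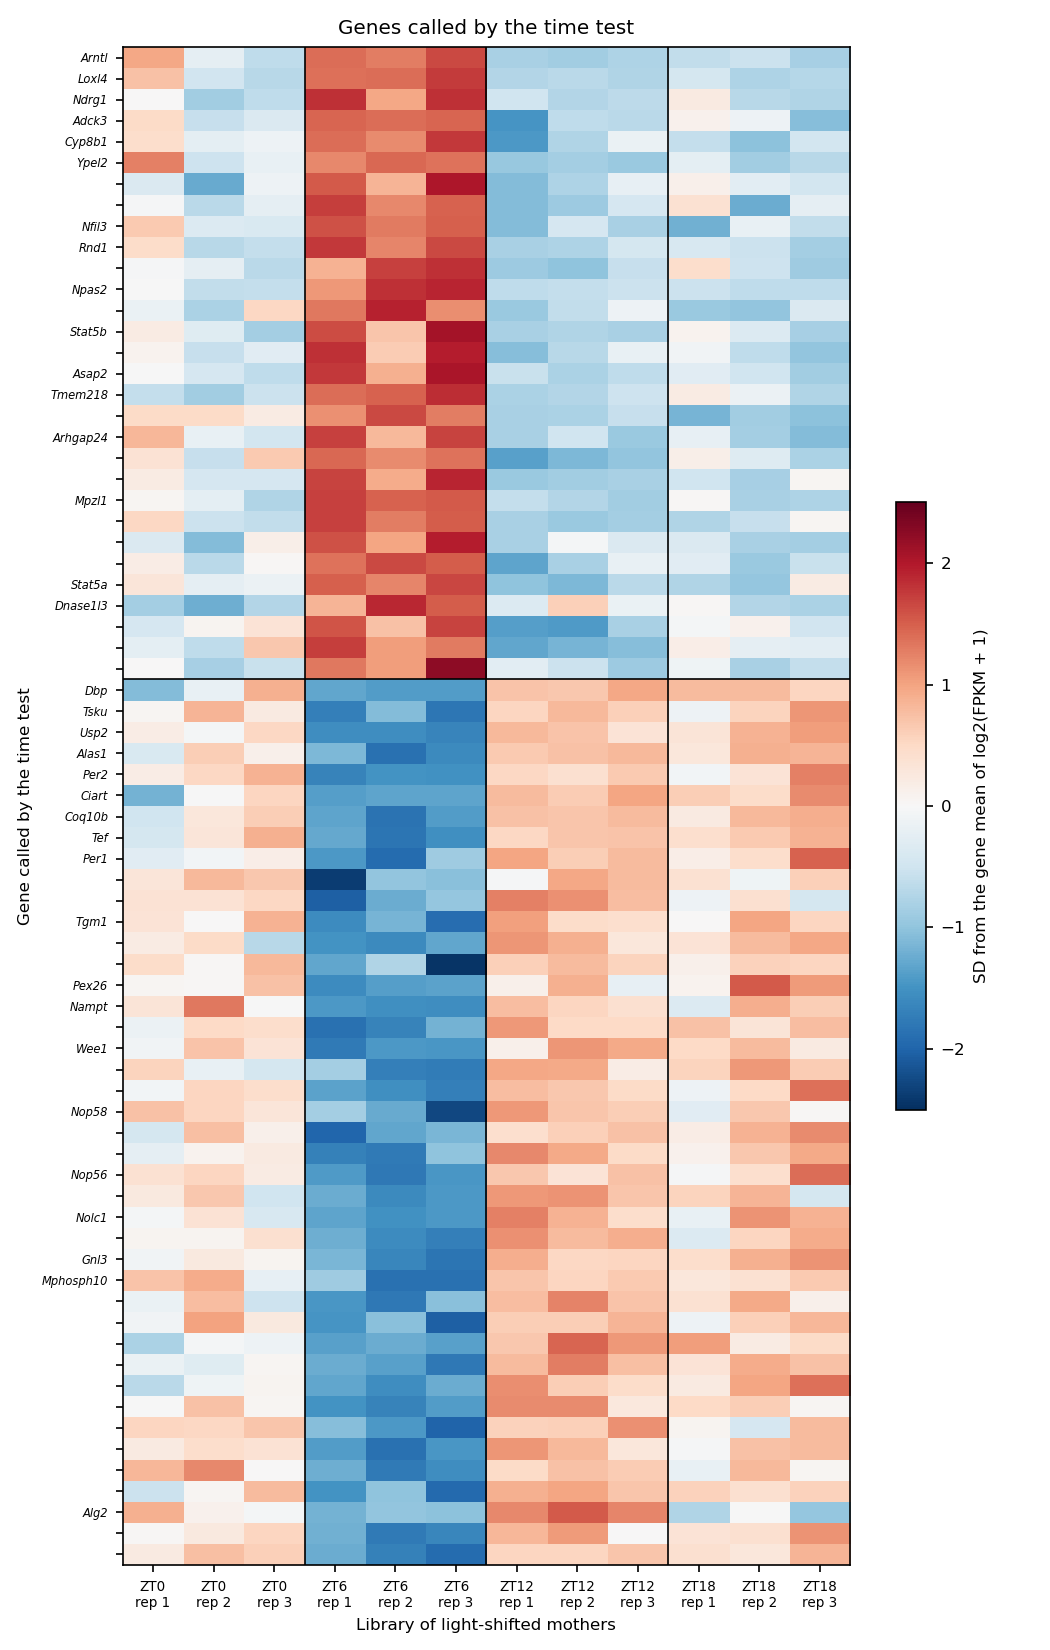
Heat map of the 72 genes called by the time test in light-shifted mothers; rows are genes and columns are the 12 libraries, 3 at each time, and the colour is the distance of a library from the gene's mean of log2(FPKM + 1), in SD over the 12 libraries. Names are given for genes described in the text. The upper 30 genes are highest at ZT6 and the lower 42 are lowest there, while ZT12 and ZT18 have similar colours.

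The number of called genes rested on each ZT6 library. Without ZT6 replicate 1, 2 or 3 the test called 3, 3 and 2 genes. Without ZT12 replicate 1, 2 or 3 it called 22, 16 and 30, and without ZT18 replicate 2 it called 33. Without the 2 libraries of lowest correlation it called 97 genes, of which 61 were among the 72, and ZT6 was again an extreme in all 97.

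Of the 19 core clock genes listed, 18 were tested and 8 were called (44.4%, against 0.717% of all genes). This list and the others below were chosen with earlier results of these data known. Their shares of called genes are therefore a description and not independent support. With no filter on low values 1 of the 8, Npas2, was called, and the other 7 had adjusted p-values of 0.05048 to 0.1358. All 8 were called without the 2 libraries of lowest correlation. Those highest at ZT6 were Arntl, Npas2 and Nfil3, and those lowest at ZT6 were Per1, Per2, Dbp, Tef and Ciart. The median fold between the highest and lowest time over the 18 was 1.36 on the log2 scale, against 0.255 over all genes tested.

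Arntl, the partner of CLOCK, was high at ZT6 in all replicates. It stood at 7.79, 6.90 and 9.89 scaled FPKM at ZT6, at 0.327, 0.265 and 0.366 at ZT12, and at 0.549, 0.662 and 0.301 at ZT18. At ZT0 the replicates read 5.05, 1.19 and 0.541, so that the first lay near the ZT6 libraries and the third near ZT12. Arntl was 2.79 ± 0.37 (SE) lower on the log2 scale at ZT12 than at ZT6 (adjusted p = 0.005121) and 2.61 ± 0.37 lower at ZT18 (adjusted p = 0.01117). The difference between ZT6 and ZT0, 1.74 ± 0.37, did not pass (adjusted p = 0.09632). Its F test gave an adjusted p of 0.01755.

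Npas2, the relative of CLOCK, had a level near the limit of the table at every time but ZT6. It read 1.08, 1.86 and 1.96 at ZT6 and between 0 and 0.0492 in all ZT12 and ZT18 libraries, with ZT0 at 0.307, 0.0162 and 0.0175. The groups at ZT6 and at the other times did not overlap, and Npas2 had the smallest adjusted p of the clock genes (0.006291). It passed the filter on low values only through its ZT6 libraries, so that a difference was built into its being tested. Nfil3, the repressor at D-boxes, read 18.9, 16.1 and 17.9 at ZT6, with 11.4, 6.44 and 6.34 at ZT0. Its ZT12 libraries were at 4.12, 6.16 and 4.85 and its ZT18 libraries at 3.83, 7.03 and 5.49, so that ZT6 exceeded every other library (adjusted p = 0.0217). CLOCK itself is the constant partner in many tissues, and Clock was not called (adjusted p = 0.7807), with means of 2.98, 3.79, 1.96 and 2.16 from ZT0 to ZT18.

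Among the repressors of the loop, Per2 was almost silent at ZT6 and high at the other 3 times. It read 0.201, 0.439 and 0.395 at ZT6. At ZT0 it read 6.35, 9.21 and 13.5, at ZT12 9.29, 8.12 and 10.8, and at ZT18 4.73, 7.64 and 20.3. No library of another time came near ZT6, while ZT0, ZT12 and ZT18 overlapped each other. Per2 was 2.94 ± 0.39 (SE) lower on the log2 scale at ZT6 than at ZT0 (adjusted p = 0.02112), one of 20 genes called in that pair (0.199% of those tested). Per1 read 1.10, 0.526 and 2.02 at ZT6, 3.52, 4.19 and 5.06 at ZT0, 9.55, 7.17 and 8.20 at ZT12, and 5.07, 6.32 and 13.5 at ZT18. Here ZT0 lay between ZT6 and ZT12 with no overlap, and ZT18 reached over all of ZT12 (adjusted p of the F test 0.02421).

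Ciart, a further repressor of the BMAL1 pair and the gene with 3 E-boxes above, had its largest contrast between ZT6 and ZT12. It read 0.0928, 0.146 and 0.158 at ZT6 and 7.51, 6.29 and 9.11 at ZT12, with 6.23, 5.15 and 11.2 at ZT18. At ZT0 it was at 0.318, 2.95 and 5.65, so that one replicate was close to ZT6 and another reached ZT18. The F test gave an adjusted p of 0.03326. Leaving out 1 library at a time ended the time call of Ciart in 7 of 12 fits, of Nfil3 and Per1 in 6, of Arntl in 5, and of Per2 in 3.

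The PAR bZIP genes Dbp and Tef followed the same outline. Dbp read 0.342, 0.169 and 0.190 at ZT6, 18.6, 17.7 and 26.7 at ZT12, and 21.0, 21.1 and 14.5 at ZT18. At ZT0 the 3 replicates were at 0.804, 5.00 and 24.1, which covers nearly the whole range of the other times. Dbp had the largest fold of the called genes, 17.6 between ZT12 and ZT6, and its call was narrow (adjusted p = 0.04309, lost in 10 of 12 fits with 1 library left out). Tef read 9.04, 5.87 and 7.39 at ZT6, 34.4, 39.1 and 39.3 at ZT12, and 31.8, 38.1 and 44.3 at ZT18. Its ZT0 replicates, at 17.1, 29.4 and 44.7, ranged from the middle to the top of those values (adjusted p = 0.01339). Hlf, the other member of that family, was at 3.6, 3.39 and 3.81 at ZT6 and between 4.43 and 7.21 elsewhere. All ZT6 libraries of Hlf lay below the others, and it was higher at ZT12 than at ZT6 by 0.68 ± 0.14 (SE) on the log2 scale (adjusted p = 0.03557), although its F test did not pass (adjusted p = 0.1521).

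The remaining clock genes did not pass the F test, and most of them had replicates that disagreed. Per3 was at 0.461, 0.355 and 0.427 at ZT6 and at 1.77 or more in the 9 other libraries. Its F test had an adjusted p of 0.09083, and of 0.009919 without the 2 libraries of lowest correlation and 0.0377 with the replicate number as a block in the fit (the replicate block). Per3 was called higher at ZT12 and at ZT18 than at ZT6 (adjusted p 0.03504 and 0.04774). Nr1d1, the repressor of Arntl, read 0.385, 0.896 and 13.5 at ZT0, 13.9, 3.96 and 5.57 at ZT6, 4.71, 8.82 and 8.02 at ZT12, and 19.6, 4.02 and 5.26 at ZT18. A high and a low replicate occurred at 3 of the 4 times, and the adjusted p was 0.999. Nr1d2 (0.5394), Bhlhe40 (0.7798), Cry1, Cry2 and Rora (each 0.999) were likewise not called. Cry1 differed most at ZT0, with 9.14, 5.80 and 2.06, against 2.53 to 4.60 at ZT6 and 3.41 to 4.42 at ZT12.

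Genes under known control of the clock made up the next group. Of 26 tested members of a list of clock output genes, 7 were called (26.9%, against 0.717% of all genes): Usp2, Tsku, Coq10b, Alas1, Wee1 and Nampt were lowest at ZT6, and Loxl4 was highest there. As with the clock list, earlier results of these data were known when this list was chosen, so the share is a description. With no filter on low values Usp2, Alas1 and Coq10b were called, and the other 4 had adjusted p-values of 0.0612 to 0.1254. Usp2, which encodes a deubiquitinase with strong daily rhythms in liver, had the smallest p of all genes (adjusted p = 0.002493). It read 0.672, 0.666 and 0.524 at ZT6, 7.70, 5.91 and 11 at ZT0, 14.6, 13.3 and 9.10 at ZT12, and 8.83, 15.7 and 18.5 at ZT18. Each of the 9 other libraries lay far above ZT6, and Usp2 was called in all 12 fits with 1 library left out.

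Tsku, which encodes a secreted protein made by hepatocytes, read 3.19, 7.58 and 2.70 at ZT6. Its ZT0 libraries were at 32.1, 83.7 and 38.9, its ZT12 libraries at 57.6, 80.0 and 60.7, and its ZT18 libraries at 25.6, 58.5 and 112. The fold between ZT12 and ZT6 was 13.0 (adjusted p of the F test 0.0163). Alas1, the rate-limiting enzyme of heme synthesis in liver, was at 40.0, 19.1 and 25.0 at ZT6, against 82.2, 217 and 134 at ZT0, 223, 239 and 261 at ZT12, and 156, 279 and 268 at ZT18. Of the 11 heme genes tested it was the only one called (adjusted p = 0.01216). Coq10b, a coenzyme Q binding protein of mitochondria, whose promoter is shown above, was at 5.87, 3.71 and 5.48 at ZT6 and at 29.5 to 31.9 at ZT12. Its ZT0 replicates again lay between, at 11.6, 21.7 and 27.8 (adjusted p = 0.01339).

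Loxl4, a lysyl oxidase, followed Arntl in shape. It read 5.46, 5.56 and 7.72 at ZT6, 2.88, 0.497 and 0.262 at ZT0, 0.239, 0.290 and 0.213 at ZT12, and 0.546, 0.200 and 0.250 at ZT18. As in Arntl, ZT0 replicate 1 was the library nearest to ZT6 (adjusted p = 0.01339). Wee1, a kinase that holds back mitosis, read 0.415, 0.629 and 0.609 at ZT6 and from 1.84 to 3.68 in all other libraries (adjusted p = 0.01339). Nampt, which makes a precursor of NAD, read 7.69, 7.32 and 7.28 at ZT6 and from 13.6 to 30.7 elsewhere (adjusted p = 0.04425, lost in 9 of 12 fits with 1 library left out). It was the only 1 of 18 genes of NAD and sirtuins called.

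Few metabolic genes tied to feeding were called. Cyp8b1, the enzyme that sets the share of cholic acid among bile acids, was the only 1 of 17 bile acid genes called. Its ZT6 libraries read 170, 149 and 215, its ZT0 libraries 93.9, 61.2 and 65.3, its ZT12 libraries 28.6, 44.3 and 64.0, and its ZT18 libraries 48.5, 37.3 and 53.0 (adjusted p = 0.02069).

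In the list of fatty acid synthesis, 0 of 19 genes were called by limma. There Srebf1, the regulator of lipogenesis, read 8.89, 19.7 and 17.8 at ZT6 and 30.8 or more in each of the 9 others (adjusted p = 0.06935), and Pnpla3 read 0.709, 3.54 and 1.65 at ZT6 and 6.82 or more elsewhere (adjusted p = 0.06935). Between ZT12 and ZT6, 3 of the 19 were called higher at ZT12, and the median difference of the list was 0.561 on the log2 scale, against -0.00938 for all genes. The fasting and ketogenesis list (21 tested), the unfolded protein response (22), heat shock (15), immediate early genes (15), the acute phase (18), iron (11), amino acids and urea (19) and drug metabolism (16) had 0 members called by the F test in limma. Of 15 glucocorticoid targets 1 was called, the clock gene Per1.

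Other called genes with large folds were spread over several functions. Among those highest at ZT6, Ndrg1, a stress-responsive gene, read 17.3, 8.60 and 17.3 at ZT6 and 4.43 or less in the other libraries (adjusted p = 0.0191). Adck3, a kinase-like protein of coenzyme Q synthesis, read 70.2, 67.1 and 70.1 at ZT6 and 35.4 or less elsewhere (adjusted p = 0.03791, and 0.05696 with the replicate block; lost in 7 of 12 fits with 1 library left out). Its replicates agreed more closely at ZT6 than at any other time. Ypel2, of unclear function, read 7.20, 8.47 and 8.00 at ZT6 and 7.47, 1.96 and 2.59 at ZT0 (adjusted p = 0.04425, and 0.05651 without the 2 libraries of lowest correlation; lost in 8 of 12 fits). Among those lowest at ZT6, Tgm1, a transglutaminase, read 3.69, 5.15 and 2.79 at ZT6 and 12.0 or more in the others (adjusted p = 0.0163). Pex26, a peroxisome assembly factor, read 2.27, 2.55 and 2.61 at ZT6 and 4.90 or more elsewhere (adjusted p = 0.0493). The call of Pex26 was lost in 10 of 12 fits with 1 library left out, with the replicate block (0.05245) and without the 2 libraries of lowest correlation (0.07661). With no filter on low values none of Ndrg1, Adck3, Ypel2, Tgm1, Pex26 and Cyp8b1 was called.

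Some called genes were noticed after their values were seen. Nop56, which the naming rule picked among the genes highest at ZT18, read 4.42, 3.73 and 4.34 at ZT6 and 7.97 or more in each of the other libraries (adjusted p = 0.02325). It encodes a core protein of the nucleolus, and Nop58, Nolc1, Gnl3 and Mphosph10, also nucleolar, were called with ZT6 lowest (adjusted p 0.04641, 0.04425, 0.01339 and 0.03326). Stat5a and Stat5b, which carry growth hormone and prolactin signals, were both called with ZT6 highest. Stat5a read 4.39, 3.99 and 4.65 at ZT6 and 2.86 or less elsewhere, and Stat5b read 13.4, 8.76 and 16.2 at ZT6 and 6.96 or less elsewhere (adjusted p 0.02799 and 0.04882). No list of these genes was tested.

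Summed levels of the Kupffer cell and macrophage markers and of the endothelial markers had their highest library at ZT6. Their ZT6 range overlapped that of another time. The highest library was at ZT6 also for the hepatocyte (183000 scaled FPKM), stellate cell (107) and acinar cell (7.85) markers. The summed level of the 12 Kupffer cell and macrophage markers was 187 to 282 at ZT6, 65.3 to 152 at ZT0, 89.8 to 176 at ZT12 and 67 to 192 at ZT18. That of the 10 endothelial markers was 53.4 to 74.2 at ZT6, 37.7 to 42.1 at ZT0, 44.8 to 54.4 at ZT12 and 43.9 to 51.3 at ZT18. By limma, 0 of these 22 markers were called by the F test, nor was any tested marker of hepatocytes, stellate cells, cholangiocytes, lymphocytes, neutrophils, erythroid cells or acinar cells. Dnase1l3, a nuclease of liver sinusoidal endothelium and macrophages, noticed after its values were seen, was called with ZT6 highest, at 6.32, 8.68 and 7.78 against 3.16 to 5.83 in the others (adjusted p = 0.0493). The part of these cells in the genes high at ZT6 was not tested.

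The 4 times formed 6 pairs, and calls were limited to the 3 pairs that include ZT6. Between ZT12 and ZT6, 168 genes were called (1.67%), 95 higher (0.947%) and 73 lower (0.727%) at ZT12. Of the 18 clock genes, 10 were among them, 7 higher and 3 lower at ZT12. Between ZT18 and ZT6, 74 were called (0.737%), 44 higher (0.438%) and 30 lower (0.299%) at ZT18, and 69 of these 74 were among the 168. Between ZT6 and ZT0, 20 were called (0.199%), 7 higher (0.0698%) and 13 lower (0.13%) at ZT6, and 18 genes were called in all 3 pairs, which share the ZT6 libraries. For ZT12 against ZT0, ZT18 against ZT0 and ZT18 against ZT12, limma called 0 genes (0%), although 177, 75 and 105 genes had an unadjusted p below 0.05. A p that misses the threshold does not show that those times are alike, and ZT0 and ZT18 had the widest replicates.

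**Figure D2:**
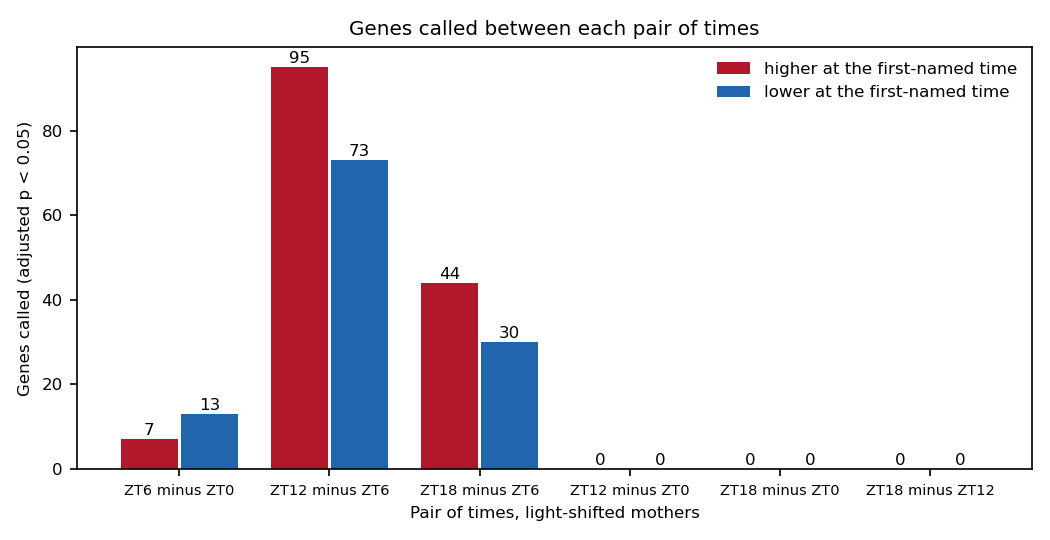
Number of genes called between each of the 6 pairs of times in light-shifted mothers (y axis, genes with adjusted p under 0.05); red bars are genes higher and blue bars genes lower at the first-named time. The 3 pairs with ZT6 hold 20, 168 and 74 calls, and the 3 pairs without it hold 0.

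The largest changes in these pairs fell on genes already described, with 4 additions. Tmem218, a gene of cilia, was higher at ZT6 than at ZT0 by 1.25 ± 0.14 (SE) on the log2 scale (adjusted p = 0.007664), at 3.03, 3.17 and 3.81 against 0.868, 0.689 and 0.909. Rnd1, a small GTPase, was higher at ZT6 by 1.27 ± 0.20 (adjusted p = 0.02973), at 7.41, 5.49 and 7.02 against 3.49, 1.58 and 1.69. Ppp1r3c, which targets a phosphatase to glycogen, was lower at ZT12 than at ZT6 by 2.60 ± 0.58 (adjusted p = 0.04841), at 4.67, 5.52 and 4.23 against 33.3, 25.1 and 47.4. Its ZT0 replicates, at 38.2, 17.7 and 5.21, ranged from the ZT6 level down to that of ZT12. Clpx, a subunit of a mitochondrial protease, was lower at ZT18 than at ZT6 by 2.28 ± 0.44 (adjusted p = 0.04131), at 25.7, 16.1 and 9.73 against 94.1, 56.4 and 101. Leaving out 1 library at a time ended these pair calls of Rnd1 and Clpx in 9 of 12 fits, of Ppp1r3c in 8 and of Tmem218 in 2. The call of Rnd1 also ended without the 2 libraries of lowest correlation (adjusted p = 0.06664), and the F test of Ppp1r3c and Clpx did not pass (adjusted p 0.1906 and 0.06934).

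Peak times were placed by a 24 h cosine through the 4 means. The 24 h component was called in 32 genes (0.319%), all among the 72. Their peaks fell into 2 stretches of the day: 11 genes peaked between 4.32 and 5.99 h after lights on, and 21 between 15.6 and 18 h, with standard errors of 0.313 to 0.595 h. ZT6 was the highest or the lowest time in all 32, which by itself placed each peak before or after 12 h. The early genes include Arntl (4.54 ± 0.51 h), Nfil3 (4.70 ± 0.54 h), Cyp8b1 (4.62 ± 0.52 h), Loxl4 (5.02 ± 0.50 h) and Npas2 (5.68 ± 0.41 h). The late genes include Ciart (16.3 ± 0.55 h), Dbp (16.4 ± 0.59 h), Per1 (16.5 ± 0.54 h), Alas1 (17.0 ± 0.43 h), Tef (17.3 ± 0.48 h), Usp2 (17.4 ± 0.32 h) and Per2 (18 ± 0.51 h). With 4 times a peak between samples is set by the shape of the cosine. The standard errors hold the spread between replicates and not the distance of the means from the cosine. For Per2 the means of log2(FPKM + 1) at ZT0, ZT12 and ZT18 were 3.36, 3.37 and 3.35, so that its peak was placed by its low at ZT6. The order of ZT12 and ZT18 in the called genes is not resolved: their median absolute difference between these times was 0.122 on the log2 scale, against 1.18 between ZT12 and ZT6.

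The alternating pattern that a 24 h cosine cannot hold (ZT0 and ZT12 against ZT6 and ZT18, a 12 h component) was called by limma in 0 genes, with 662 at an unadjusted p under 0.05. The genes of small p included Tmem218 (adjusted p = 0.06403), Alg2, Usp2 and Npas2 (each 0.1461) and Mpzl1 (0.1978). Alg2, an enzyme of protein glycosylation called by the F test (adjusted p = 0.04363), read 2.51, 2.67 and 2.63 at ZT6 and 2.87, 3.61 and 2.68 at ZT18, against 4.67, 3.72 and 3.56 at ZT0 and 5.11, 5.58 and 5.13 at ZT12. ZT6 was lowest, and at ZT18 replicates 1 and 3 lay below every ZT0 and ZT12 library while replicate 2 reached the lowest of ZT0. When the spread around the cosine replaced the spread between replicates, 1 gene was called (0.00997%). The count of 32 ranged from 2 to 11 without any single ZT6 or ZT12 library or without ZT18 replicate 2 or 3, and was 16 without the 2 libraries of lowest correlation.

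The E-box occurred in 7 of the 35 genes lowest at ZT6 with a promoter in the table (20.0%), namely Ciart, Coq10b, Kcnk5, Per1, Rnf145, Slc20a1 and Tef, and in 0 of 23 genes highest at ZT6. It occurred in 8.09% of 27025 genes and in 12.3% of the 7711 tested genes with a promoter. The D-box occurred in Coq10b, Mphosph10 and Per1 (8.57% of the 35) and in Osgin1 (4.35% of the 23), against 3.99% of all and 2.83% of the tested genes. The RORE occurred in Arntl alone among the called genes (4.35% of the 23), against 0.714% of all and 0.597% of the tested genes. A related E-box form, CACGTT, went the other way from CACGTG. It occurred in Nop58 (2.86% of the 35) and in 4 of the genes highest at ZT6 (17.4% of the 23). Its share was 5.44% of all and 6.26% of the tested genes. Both strands were searched, and motifs of different kinds overlapped 10 times in the whole table. These matches describe letters in a window of 300 bases and no binding was measured.

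Replicates of a time agreed best at ZT12. The median SD over genes of log2(FPKM + 1) was 0.219, 0.192, 0.139 and 0.236 from ZT0 to ZT18 (3 replicates each). In control mothers it was 0.138, 0.178, 0.128 and 0.125. Without the 2 libraries of lowest correlation, which leaves 2 replicates at ZT0 and at ZT18, the medians there were 0.109 and 0.121. An SD of 2 values tends to be smaller than an SD of 3. The libraries left out were also chosen for standing apart. These medians are therefore not comparable with those of 3 replicates. ZT18 had the widest replicates in 38.3% of genes, ZT0 in 27.9%, ZT6 in 25.3% and ZT12 in 8.47%.

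Clock genes differed from this order. Their median SD was 0.576, 0.236, 0.186 and 0.372 in the same order, and ZT0 was the widest time in 13 of the 18, with ZT6 widest in 2, ZT18 in 3 and ZT12 in 0. From the 2 remaining replicates alone, the clock medians were 0.389 at ZT0 and 0.193 at ZT18, with the same limit on comparing them. In control mothers the clock genes had 0.208, 0.418, 0.138 and 0.194. The ratio of the highest to the lowest ZT0 library, on the FPKM + 1 scale, was 13.9 in Dbp, 10.5 in Nr1d1, 6.21 in Per3, 5.05 in Ciart, 4.59 in Nr1d2 and 3.93 in Arntl. At ZT6 it was 1.15 in Dbp, 1.08 in Per3, 1.06 in Ciart and 1.38 in Arntl, and 3 in Nr1d1. At ZT0 replicate 1 was the highest of its time in 7 of the 18 genes and the lowest in 10, and replicate 3 was the highest in 8 and the lowest in 6, so that replicate 2 lay between in most.

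**Figure D3:**
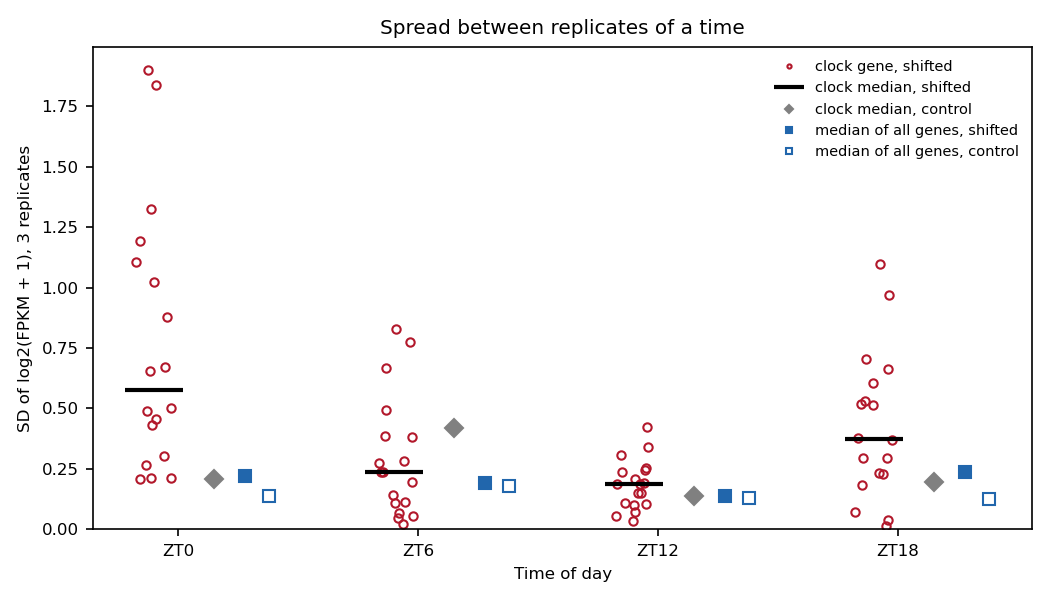
SD of log2(FPKM + 1) over the 3 replicates of each time (x axis, ZT); red circles are the 18 clock genes in light-shifted mothers with their median as a black bar, grey diamonds are the clock median in control mothers, and blue squares are medians over all genes (filled, shifted; open, control). The clock median in shifted mothers is 0.576 at ZT0 and 0.186 at ZT12.

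A test of whether the spread differed between the 4 times, on absolute deviations from the time mean, called 0 genes with limma, with 1669 at an unadjusted p under 0.05. On simulated data this test had little power with 3 replicates a time, and with no difference simulated it gave small unadjusted p-values more often than its nominal rate, so nothing is read from the 1669. The genes of smallest p included Bud13, an RNA-processing gene at 1.46, 1.26 and 5.55 at ZT18 and 1.06 to 2 elsewhere, Phf11c at 1.85, 1.28 and 6.99 at ZT18, and Rps27, a ribosomal protein gene at 43.5, 2.56 and 1.92 at ZT6 and 1.11, 1.10 and 26.9 at ZT0. Eif4e3, a cap-binding protein, read 2.42, 0.779 and 2.87 at ZT0 and 0.748 to 1.12 elsewhere. Each of them rested on 1 or 2 libraries, and Rps27 has near-identical copies in the genome, which makes its reads uncertain to assign.

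By the test of absolute deviations, spread was larger in shifted than in control mothers for many genes. It called 1121 of 10351 genes (10.8%), 1066 with a larger (10.3%) and 55 with a smaller (0.531%) spread in shifted mothers. At an unadjusted p under 0.05 there were 2996 genes. With no difference simulated, this test gave such a p in 11.8% of genes, above its nominal rate, and called 0 after adjustment. It recovered 7% of genes simulated with a 3-fold SD in 1 arm. A test of the ratio of variances, added after the data were seen, called 240, of which 238 were larger in shifted mothers, and 0 without ZT0 replicate 3 and ZT18 replicate 3. Small RNAs aside, the 5 genes of smallest p, Mob1a, Crebl2, Alg10b, Fbxo3 and Zyg11b (each adjusted p = 0.003429), were low in the same libraries. Mob1a, an activator of Hippo kinases, read 0.899 in ZT0 replicate 3, 0.765 in ZT18 replicate 3, 2.17 in ZT6 replicate 2 and 1.39 in ZT12 replicate 3, against 4.05 to 7.60 in the other 8. Fbxo3, of a ubiquitin ligase, read 14.9, 11.8, 12.2 and 17.3 in those 4 libraries and 26.6 to 34.6 in the other 8. The correlation of a library's levels with the GC content of transcripts, across genes, ranged from -0.371 to 0.291. It was 0.221, 0.226, 0.291 and 0.0631 in those 4 libraries. The correlation with transcript length was -0.258, -0.202, -0.418 and -0.154 in those 4 and -0.0718 or higher in the other 8. The part of GC content or length in the spread was not tested. None of the 18 clock genes was called in this comparison, and their median difference in absolute deviation was 0.0883, against 0.0385 for all genes.

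The daily profile itself differed between shifted and control mothers in 170 of 10351 genes (1.64%, F test of the interaction of time and schedule), with 1116 at an unadjusted p under 0.05. Of the 72 genes called within shifted mothers, 41 were among the 170, and 31 were also called by the time test in control mothers. Among the 18 clock genes 13 were called, with Arntl, Npas2, Per2, Dbp, Tef, Nfil3 and Ciart among them. Without shifted ZT6 replicate 3 the count was 106, and without control ZT18 replicate 1, 2 or 3 it was 101, 92 and 97.

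Arntl shows what differed. In control mothers its 4 means, from ZT0 to ZT18, were 6.95 ± 0.48 (SD, n = 3), 1.35 ± 0.74, 0.744 ± 0.22 and 7.10 ± 0.70, high at both ends of that series. In shifted mothers it was 2.26 ± 2.4, 8.19 ± 1.5, 0.319 ± 0.051 and 0.504 ± 0.18 at the same times, high at ZT6 alone (interaction adjusted p = 8.494e-05). Per2 in control mothers was 0.764 ± 0.35, 1.5 ± 0.51, 7.65 ± 0.99 and 3.51 ± 0.59, and in shifted mothers 9.67 ± 3.6, 0.345 ± 0.13, 9.41 ± 1.40 and 10.9 ± 8.30. Both arms were high at ZT12, and the shifted mothers were also high at ZT18 and ZT0 (interaction adjusted p = 0.001238). Cry1 was not called within shifted mothers but differed between schedules (adjusted p = 0.02189). At ZT18 Cry1 was 10.3 ± 0.81 in the control arm and 3.43 ± 1.5 in the shifted arm.

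The times of the highest and lowest mean were set beside those of control mothers for the called genes, and not for all genes tested. Of the 30 genes highest at ZT6 in shifted mothers, 17 were highest at ZT0 in control mothers, 10 at ZT18 and 3 at ZT6. Of the 42 genes lowest at ZT6 in shifted mothers, 16 were lowest at ZT0 in control mothers, 15 at ZT6 and 11 at ZT18. Of the 32 genes highest at ZT12 in shifted mothers, 29 were highest at ZT12 in control mothers. These counts describe the order of means. The interaction tested for any difference in the daily profile between schedules, and whether a gene's peak moved was not tested.

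Each shifted library was also set beside the control means over the 18 clock genes, after centring each gene within its arm. The correlations are across genes that share a library and are given as a description. The 3 ZT6 libraries correlated best with control ZT0 (r = 0.936, 0.944 and 0.912), and the 3 ZT12 libraries with control ZT12 (r = 0.902, 0.871 and 0.894). The ZT18 libraries correlated best with control ZT6 (0.902), ZT12 (0.916) and ZT12 (0.888). The ZT0 libraries divided: replicate 1 correlated best with control ZT18 (0.943), replicate 2 with ZT18 (0.605) and replicate 3 with ZT12 (0.716). Replicates of ZT6 and ZT12 therefore pointed to 1 control time each, and those of ZT0 and ZT18 to 2.

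**Figure D4:**
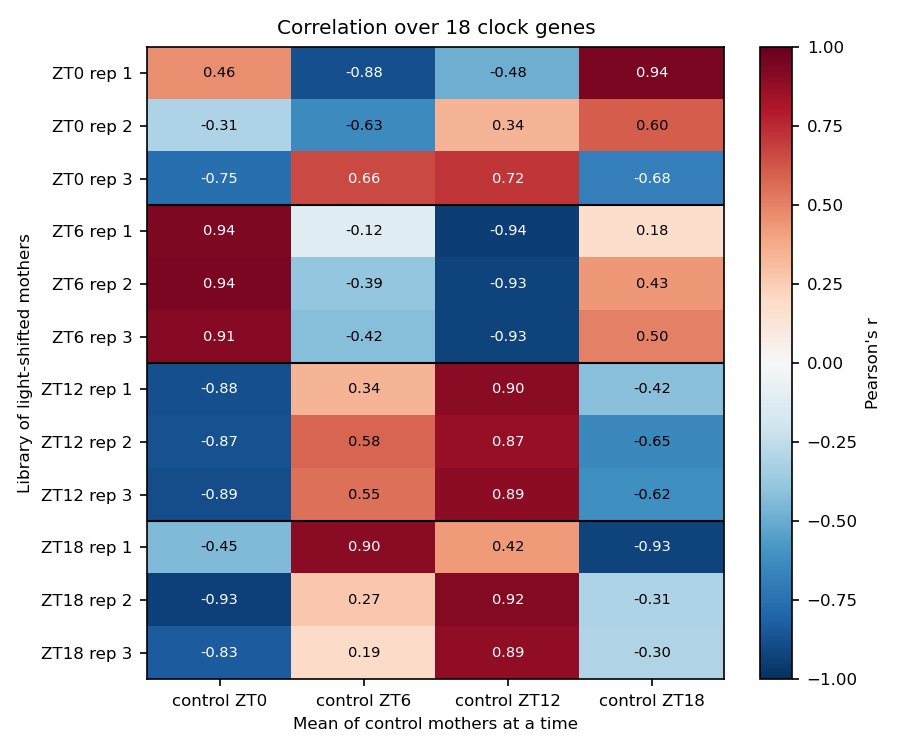
Pearson correlation over 18 clock genes between each library of light-shifted mothers (rows, by time and replicate) and the control mean at each time (columns), after centring each gene within its schedule. The 3 ZT6 libraries are highest with control ZT0 (0.912 to 0.944), the 3 ZT12 libraries with control ZT12 (0.871 to 0.902), and the 3 ZT0 libraries differ.

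Outside the clock, several genes of DNA replication had profiles that differed between the schedules. The cell cycle list, like the others, was chosen with earlier results of these data known. In the cell cycle list, 12 of 20 genes were tested, and 1 (Wee1) was called by the time test in shifted mothers (against 0.717% of all genes), 8 in control mothers (against 4.28%) and 8 for the interaction (against 1.64%). Tested members with no interaction call include Mcm10, Cdk1 and Ccna2 (adjusted p 0.2239, 0.2213 and 0.7118), and Mcm10 had a higher mean at ZT18 in shifted mothers (4.15) than in control mothers (2.33). Mcm7, part of the helicase that opens DNA for copying, was 12.4 ± 1.3 in control mothers at ZT18 and between 3.43 and 4.22 on average at the other times. In shifted mothers its 12 libraries ran from 2.66 to 4.78, with 2.82, 2.88 and 2.66 at ZT18 (interaction adjusted p = 0.000291). Prim1, the primase subunit, was 5.20 ± 0.74 at ZT18 in control mothers and 0.875, 0.897 and 0.799 in shifted mothers at that time (adjusted p = 0.000541). The means of Mcm3, Mcm6 and Pcna at ZT18 were 6.40, 12.9 and 37.5 in control mothers and 0.784, 0.880 and 15 in shifted mothers (adjusted p 0.001238, 0.0006928 and 0.003526). In these 5 genes every shifted library lay below the control mean at ZT18, and the time test within shifted mothers was far from its threshold (adjusted p 0.888 for Mcm7 and 0.999 for the other 4).

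Asap2 and Mpzl1 were among the 5 named genes of smallest interaction p outside the clock. Asap2, a regulator of membrane traffic, read 2.70, 1.60 and 3.13 at ZT6 and 0.286 to 0.817 elsewhere in shifted mothers, and was 1.85 ± 0.37, 1.07 ± 0.10, 0.460 ± 0.020 and 1.76 ± 0.25 at ZT0, ZT6, ZT12 and ZT18 in control mothers. Mpzl1, a cell surface glycoprotein, read 2.37, 2.12 and 2.18 at ZT6 and 0.458 to 0.956 elsewhere in shifted mothers (interaction adjusted p = 0.000291 for each). In both genes the high libraries of shifted mothers were those of ZT6 alone. Both were also called by the time test in shifted mothers. They passed its filter on low values only through their ZT6 libraries, so that, as in Npas2, a difference was built into their being tested there.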

How the data were processed

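The deposited values are FPKM per gene in 1 table for each maternal schedule, and the table of light-shifted mothers has 24883 entries. Per the submitters' processing notes, tools included Cufflinks 2.2.1 and TopHat2 2.1.1, with the build mm10; which annotation or filter was used is not stated in these sources. Symbols on several entries (280 symbols, 817 entries) were left out. FPKM were divided by median-of-ratios factors over 24 maternal libraries, and log2(FPKM + 1) was modelled with a mean for each time in limma 3.58.1 under R 4.3.3, with moderated variances and an intensity trend. Genes reaching FPKM 1 in 3 or more libraries were tested, with Benjamini-Hochberg adjustment at 0.05 over all genes. Peak times are from the cosine and sine contrasts of the 4 means. Promoters and figures used Python 3.11.15. No library was a copy of another (at most 0.00831% of values identical between 2 libraries). Scripts were tested on simulated data.

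Genes named are the clock list, the 5 largest folds per highest time (mean FPKM of at least 1 there), the 3 largest rises and falls per pair, the 5 smallest p of the interaction, the 12 h component and each spread test, and the called members of 28 lists or the 2 of smallest p; small RNAs and unnamed gene models were not eligible. Members and lists were chosen with earlier results of these data known. Some results are not reported here. The labels give no batch. Alternatives covered the pseudocount, the filter, scaling, the replicate block, the intensity trend, GC and length, a joint fit with control mothers, cosine terms, leaving out ZT0, and leaving out each library.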

Additional observations from a re-analysis of the deposited data

Results flagged for a closer look

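In 170 genes the daily profile of shifted mothers differed from that of control mothers by the interaction test. The genes of this kind named here are given with the adjusted p of limma's interaction F test. Among clock genes these included Npas2 (1.49e-06), Tef (7.44e-05), Arntl (8.49e-05), Nfil3 (0.00059), Per2 (0.00124), Dbp (0.00211), Ciart (0.0034), Per3 (0.00652), Hlf (0.0145), Nr1d2 (0.0202), Cry1 (0.0219) and Per1 (0.0327). Outside the clock they were Coq10b (0.000206), Mcm7, Asap2 and Mpzl1 (each 0.000291) and Prim1 (0.000541). The call was lost without 1 library in 10 of 24 fits for Per1 and in 5 of 24 for Cry1 and for Nr1d2, and in none of the 24 for the other clock genes of this list. The profiles of Coq10b, Mcm7, Asap2, Mpzl1 and Prim1 were called in all 24.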

How the results depend on the processing

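The time test's 72 genes became 14 with no filter on low values, 204 in one fit with control mothers (70 of the 72 among them), 112 without ZT0 and 1 with cosine and sine terms only. For ZT6 against ZT0, 20 became 5 with no filter, 44 with GC and length trends removed, 141 in the joint fit and 38 with the replicate block. For ZT12 against ZT6, 168 became 425 in the joint fit and 381 without the 2 libraries of lowest correlation. For ZT18 against ZT6, 74 became 32 with no filter and 238 in the joint fit. For ZT18 against ZT12, 0 became 1 with no filter. The 24 h count of 32 became 8 with no filter, 52 with GC and length trends removed, 120 in the joint fit and 16 without the 2 libraries. The 12 h count of 0 became 4 with a pseudocount of 0.1, 1 with GC and length trends removed, 25 in the joint fit and 2 without the 2 libraries. The spread count of 1121 became 240 by variance ratio (238 larger, 2 smaller) and 0 by that test without the 2 libraries; the 55 smaller became 162 with no filter and 31 in values as deposited. The cause of each was not tested. Leaving out 1 library at a time gave 2 to 82 genes for the time test, 0 to 39 for ZT6 against ZT0, 32 to 225 for ZT12 against ZT6, 11 to 134 for ZT18 against ZT6, 2 to 46 for the 24 h and 0 to 10 for the 12 h component, and 92 to 224 for the interaction. It was not run for spread, where the 2 remaining deviations are equal by construction.

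Of 2776 comparisons of a gene's value with the reported value, 304 lost a call and 30 gained a call. No value reversed its direction, but only differences between times and spread between schedules have a direction. The F tests of time and of the interaction have none, so their comparisons could not show a reversal. The replicate numbers are not treated as pairs, because not every correlation of same-numbered deviations exceeded 0.1: they ran from -0.38 to 0.695 (median 0.125, 10 of 18 over 0.1), against a median of -0.138 for different numbers (15 of 36 over 0.1), and 7 of 12 libraries correlated best with their own number. This rule is not a test of pairing, and whether same-numbered replicates belong together was not tested. With the replicate block the time test called 56 genes, and the interaction 148. Depth is unknown and limits what can be said of genes under 1 FPKM.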
